A study of Mus musculus with 28 samples.

Results

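H3K27ac peaks that the deposited tables placed in exons of genes, away from promoters, are described here across stages of mouse spermatogenesis. Each H3K27ac peak was represented by its highest summit, overlapping peaks of the 12 H3K27ac libraries were merged into regions, and a region was kept as an exon-class region where all its peaks were of the exon class and none overlapped a peak of an input library. Of 129187 merged regions, 9206 (7.13%) met this rule. A further 33 regions held only exon-class peaks but overlapped an input peak. Another 4605 regions joined an exon-class peak to a peak of a different class, which was an intron-class peak in 3595 of them and a promoter-class peak in 1380. The 9206 regions therefore held 16040 of the 32322 exon-class peaks (49.6%). The tables listed an exon class but no exon number, coding part or untranslated part, so finer annotation is not given.

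The libraries were made by ChIPmentation, a chromatin immunoprecipitation in which a transposase inserts the sequencing adapters, from germ cells of C57BL/6 mouse testes. Spermatogonia sorted as Thy1+ or c-Kit+ were taken at postnatal day 7 from wild-type (WT) or Scml2-KO (KO) animals. Pachytene spermatocytes (PS) and round spermatids (RS) came from adult mice, and their H3K27ac libraries analysed here were all KO. H3K27ac of WT PS and WT RS was not analysed here, so stage was compared within KO, where the age of the mice changed together with the cell type and cannot be told apart from it. The labels named no promoter, Cre or clone behind the knockout and did not say whether replicates came from separate animals, so p-values measure the spread between libraries, which may be technical. Each of the 6 groups had 2 libraries. Another 16 input libraries covered the same cell types, each in WT and KO, and their peaks were used to leave out overlapping regions. Fold enrichment was taken as deposited, over a library-wide background height, and was not divided by input here.

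H3K27ac, the acetylation of a lysine in the tail of histone H3, is placed by the acetyltransferases p300 and CBP and marks active promoters and enhancers. Scml2 is an X-linked, germline-enriched Polycomb-related gene that acts in the change of gene expression from spermatogonia to spermatocytes. Spermatogonia divide by mitosis, pachytene spermatocytes are in meiosis, and round spermatids are the haploid cells that follow. Exonic enhancers are known in other tissues, where an exon of a gene can also act as a regulatory element.

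Few exon-class regions lay over a gene start that the tables' own gene models did not count as a promoter. RefSeq start windows (GRCm38.p6, 250 bases before to 50 bases after each gene's start, of which 32851 were searched) overlapped 82 of the 9206 exon-class regions (0.891%), against 1.00% of 55567 intron-class regions chosen by the same rule. In 77 of the 82, the window belonged only to a gene other than the listed one. The share was 3.90% (6 of 154) among exon-class regions called in 6 or more libraries. The windows below are shown because each lies whole inside an exon-class region called in 7 or more libraries, so it is sequence under a recurrent exon-class peak. Letters are lower case except for matches, on both strands, to a GC box (GGGCGG), a cAMP response element (TGACGTCA) or an E-box (CACGTG), which are in capitals; the 3 motifs do not overlap one another here.
Unc13a, chr8:71629269-71629568, plus strand, start of Gm39195: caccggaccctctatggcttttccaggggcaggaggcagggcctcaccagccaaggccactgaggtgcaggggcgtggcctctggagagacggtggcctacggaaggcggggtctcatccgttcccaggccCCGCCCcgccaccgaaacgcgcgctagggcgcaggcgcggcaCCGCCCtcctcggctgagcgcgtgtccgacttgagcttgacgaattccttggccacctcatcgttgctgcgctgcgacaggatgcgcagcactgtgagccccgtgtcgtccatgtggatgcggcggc
Rnf39, chr17:36947033-36947332, minus strand, start of Gm33595: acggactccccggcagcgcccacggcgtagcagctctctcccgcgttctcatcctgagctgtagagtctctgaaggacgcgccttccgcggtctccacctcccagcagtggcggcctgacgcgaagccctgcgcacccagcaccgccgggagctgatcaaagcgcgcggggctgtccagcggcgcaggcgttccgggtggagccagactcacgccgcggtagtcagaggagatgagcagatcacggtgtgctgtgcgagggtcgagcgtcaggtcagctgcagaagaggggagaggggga
Kcns1, chr2:164168365-164168664, plus strand, start of LOC115486434: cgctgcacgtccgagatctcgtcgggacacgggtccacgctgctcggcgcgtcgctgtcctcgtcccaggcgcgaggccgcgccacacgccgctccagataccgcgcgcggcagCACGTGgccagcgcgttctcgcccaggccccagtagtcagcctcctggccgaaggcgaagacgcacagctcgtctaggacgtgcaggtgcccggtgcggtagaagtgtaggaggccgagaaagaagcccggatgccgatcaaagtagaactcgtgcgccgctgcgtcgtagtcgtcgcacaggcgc
Car9, chr4:43508698-43508997, minus strand, start of Arhgef39: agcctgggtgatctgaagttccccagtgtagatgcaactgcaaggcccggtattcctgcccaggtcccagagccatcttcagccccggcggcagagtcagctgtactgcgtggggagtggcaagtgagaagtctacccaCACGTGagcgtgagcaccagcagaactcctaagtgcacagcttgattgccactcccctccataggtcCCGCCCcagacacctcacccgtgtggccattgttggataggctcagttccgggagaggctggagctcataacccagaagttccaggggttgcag
The Unc13a region (chr8:71628253-71630497, 2245 bp), in the gene of a synaptic vesicle priming protein, had a peak in 9 libraries. Its window held 29 CpG dinucleotides, 68.7% G or C, and 2 GC boxes. Fold enrichment there, which is the signal height over a library-wide background height, reached 15.6 and 15.99 in PS, and 11.3 and 7.57 in RS. It was 5.24 and 5.43 in Thy1+ WT, 6.27 in c-Kit+ WT replicate 1, 5.57 in Thy1+ KO replicate 1 and 4.26 in c-Kit+ KO replicate 1, with no peak in the other 3 libraries. All 4 adult values at Unc13a were thus above all 5 spermatogonial values. These values were not centred on library medians. Over the regions tested within KO, log2 medians were 3.76 to 4.30 in adult libraries and 2.92 to 4.02 in spermatogonial ones. Without a peak in every KO library, Unc13a did not enter the main test of adult cells against spermatogonia. The Kcns1 window, in the gene of a potassium channel subunit, had 44 CpG dinucleotides and 1 E-box, the Rnf39 window had 31 CpG dinucleotides and none of the motifs, and the Car9 window, in the gene of a carbonic anhydrase, had 9 CpG dinucleotides, 1 GC box and 1 E-box. These 3 regions were called in 7 libraries each, at fold enrichments of 3.25 to 6.65 for Kcns1, 4.26 to 6.65 for Rnf39 and 3.31 to 5.08 for Car9. Of the 88 windows that overlapped an exon-class region, 23.9% held a GC box, 6.82% an E-box and none the cAMP response element. The shares were 35.7%, 7.15% and 1.79% of all windows. Some windows overlapped in part only, by as little as 4 bases at Ryr1, so a match need not lie under a region. These matches are a description of the letters only.

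Exon-class peaks were most numerous in the adult cells. Thy1+ WT held 155 and 143 of them, c-Kit+ WT 594 and 151, Thy1+ KO 890 and 189, and c-Kit+ KO 908 and 303. PS KO held 3175 and 2614, and RS KO 4292 and 2626. All 4 adult libraries were above all 8 spermatogonial ones, and replicate 1 held more than replicate 2 in all 6 groups. Their mean share of all peaks of a library, with the SD over the 2 libraries of a group, was 0.805% ± 0.00716 for Thy1+ WT, 1.38% ± 0.866 for c-Kit+ WT, 1.73% ± 1.19 for Thy1+ KO and 1.91% ± 0.832 for c-Kit+ KO. It was 4.34% ± 0.366 for PS KO and 5.00% ± 1.21 for RS KO. Within KO, the adult share was 2.85 percentage points above the spermatogonial share, with all 4 adult libraries higher. The exact permutation test (2-sided) gave p = 0.0286, the smallest that 4 against 4 libraries allow, and an adjusted p of 0.114 over the 8 exact tests of this family, so the difference did not pass an adjusted threshold of 0.05.

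**Figure D1:**
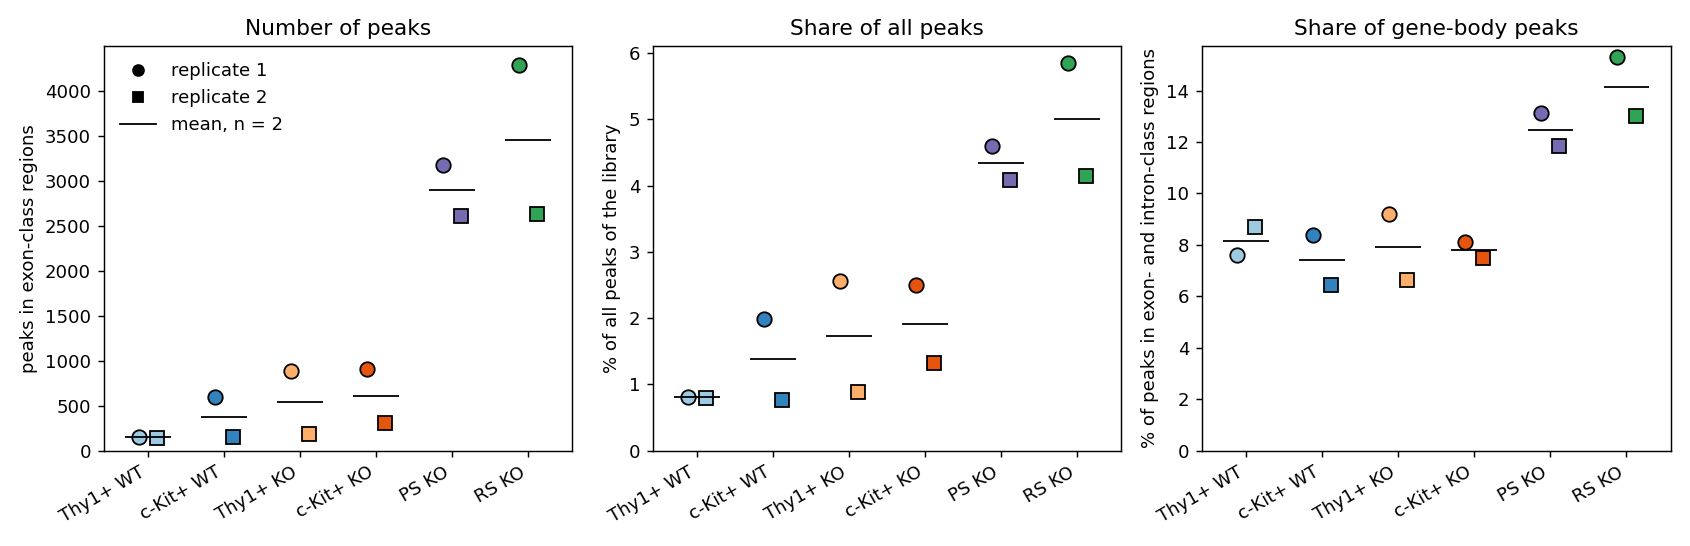
Peaks in exon-class regions per library: their number (left), their share of all peaks in % (middle) and their share of the peaks in exon-class and intron-class regions in % (right). Points are the libraries of each group (circle, replicate 1; square, replicate 2), and lines are the means of 2 libraries; the 4 adult libraries lie above the 8 spermatogonial libraries in each panel.

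The number of peaks and the depth moved with this share. The libraries held 17877 to 36362 peaks in spermatogonia and 63322 to 73316 in adult cells, and the background height, a relative sign of sequencing depth, was 0.564 to 1.11 in spermatogonia, 1.62 and 0.876 in PS and 1.56 and 0.849 in RS. The adult replicate 2 libraries, whose background height lay within the spermatogonial range, still held exon-class shares of 4.08% and 4.15%. With only the 17877 strongest peaks of every library kept, the share was 1.07% to 1.85% in spermatogonia and 3.20% to 4.18% in adult cells. Set against gene-body peaks alone, a ratio chosen after the data were seen, exon-class peaks made up 6.43% to 9.19% of exon-class and intron-class peaks in spermatogonia and 11.8% to 15.3% in adult cells, a difference of 5.46 points within KO (exact permutation test, p = 0.0286; adjusted p = 0.114), or 7.76 points with a −log10 q of at least 5. With 17877 peaks per library these shares were 9.28% to 12.2% and 22.1% to 25.2%. Before the rule was applied, exon-class peaks made up 3.18% to 5.62% of all peaks in spermatogonia and 7.9% to 9.66% in adult cells. In the inputs, 979 of 13503 peaks were of the exon class, 5.79% to 13.9% per library. The part of peak number and depth in the stage difference was not tested beyond these values.

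Loss of Scml2 was compared in spermatogonia only. The KO share of all peaks was 0.725 percentage points above the WT share after averaging over Thy1+ and c-Kit+ cells, and the exact permutation test within stage gave p = 0.222 (adjusted p = 0.444; the smallest p of this design is 0.0556). That difference moved when single libraries were left out: it was 0.305 without Thy1+ KO replicate 1, 0.419 without c-Kit+ WT replicate 2, 0.431 without c-Kit+ KO replicate 1 and 1.14 without Thy1+ KO replicate 2. It was 0.213 with equal numbers of strongest peaks and 0.483 with a −log10 q of at least 5. As a share of gene-body peaks, the difference was 0.0753 points (exact permutation test, p = 0.944), and its direction turned to −0.885 points with equal numbers of strongest peaks (p = 0.333, exact permutation test) and to −3.31 points with a −log10 q of at least 5 (exact permutation test, p = 0.0556, the smallest of this design; adjusted p = 0.111). In Thy1+ cells both KO libraries (2.57% and 0.888% of all peaks) were above both WT libraries (0.81% and 0.80%), while in c-Kit+ cells the genotypes overlapped (2.50% and 1.32% in KO, 1.99% and 0.769% in WT). Within each cell type and replicate number, the KO share was above the WT share. The exact permutation test with replicate as a block gave p = 0.125, the smallest it allows.

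Most exon-class regions were short and were called once. Their length had a median of 239 bp (quartiles 163 and 397 bp, range 144 to 6740 bp), beside 238 bp (160 and 428 bp) for intron-class regions, and 536 of them (5.82%) were over 1000 bp against 8.31% of intron-class regions. A peak in a single library accounted for 6242 exon-class regions (67.8%). Another 1638 (17.8%) had a peak in 2 libraries, and 17 (0.185%) had one in all 12. Among intron-class regions these shares were 62.9%, 18.8% and 0.400%. Exon-class regions of 1 library had a median length of 189 bp, and those of 3 had 569 bp. It was 998 bp for those of 5 to 8 libraries and 1834 bp for those of all 12. The union of more peaks is longer by construction. In Thy1+ WT 35 of these regions were called in both libraries, which was 24.6% of replicate 1 and 26.5% of replicate 2. The count was 56 in c-Kit+ WT (10.2% and 39.4%), 107 in Thy1+ KO (12.8% and 61.8%) and 107 in c-Kit+ KO (12.4% and 37.8%), where replicate 1 held several times more regions. In PS KO 1223 were called in both (41.7% and 50.9%), and in RS KO 1361 (33.5% and 58.0%). Intron-class regions were shared at higher rates in every group, for example 33.5% and 40.5% in Thy1+ WT and 49.2% and 52.7% in PS KO. The rule had left out 4605 regions that joined an exon-class peak to a peak of a different class. The part of this selection in the recurrence and sharing of exon-class regions was not tested.

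**Figure D2:**
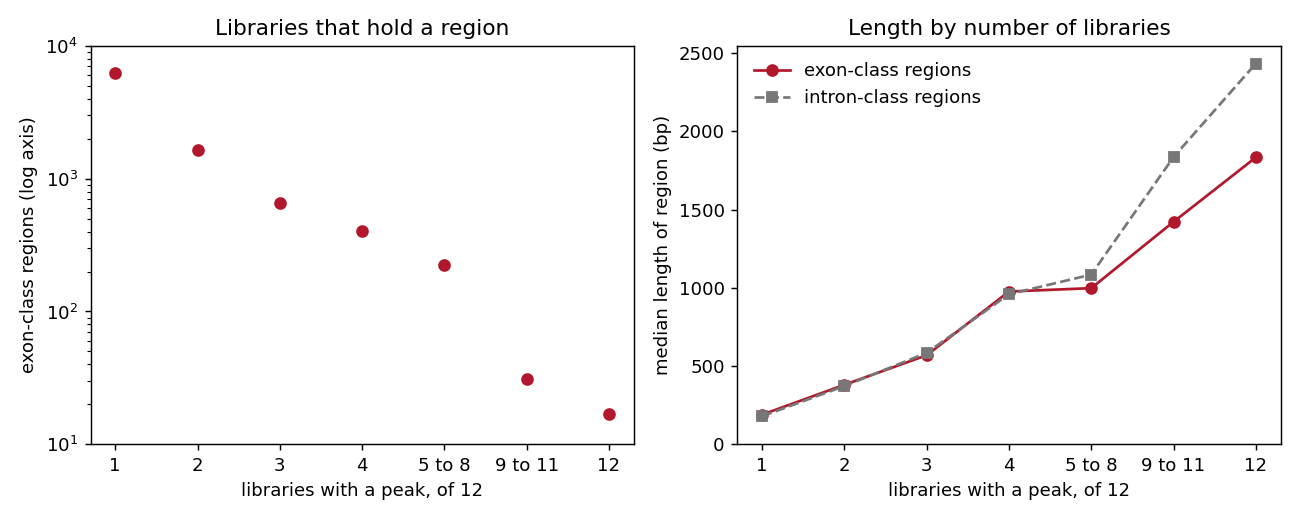
Number of exon-class regions (left, log axis) and median length in bp of exon-class and intron-class regions (right) by the number of libraries, of 12, with a peak in the region. Of the 9206 exon-class regions 6242 had a peak in 1 library and 17 in all 12, and median length went from 189 to 1834 bp.

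Within a library, exon-class peaks were close in size and height to intron-class peaks. Their median length was below that of intron-class peaks in 9 of 12 libraries, with a mean difference of −0.077 on the log2 scale (exact sign-flip permutation test, p = 0.0156; adjusted p = 0.114). With a −log10 q of at least 5 the direction turned, and exon-class peaks were longer by 0.348 on the log2 scale. That difference passed (exact sign-flip test, p = 0.000488, which is the lowest p possible here, adjusted p = 0.00391). With equal numbers of strongest peaks the difference was 0.0435 and did not pass (exact sign-flip test, p = 0.472, adjusted p = 0.755). Median fold enrichment was the same for both classes in 11 of 12 libraries, because heights are whole numbers, and ranged from 4.08 to 5.12 for exon-class peaks. The mean log2 fold enrichment, a measure added after the data were seen, was lower for exon-class peaks in 10 of 12 libraries, with a mean difference of −0.0216 (exact sign-flip test, p = 0.0166; adjusted p = 0.0664). The exon-to-intron length difference was 0.099 higher on the log2 scale in adult than in spermatogonial KO libraries (exact permutation test, p = 0.0857; adjusted p = 0.229) and 0.0078 higher in KO than in WT spermatogonia (p = 0.833, exact permutation test), and none of these stage or genotype differences passed. For median fold enrichment, both stage and genotype gave p = 1.00 in the exact permutation test.

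Exon-class regions lay toward the ends of genes. Of the 8941 that could be placed on 1 listed transcript, 33.7% had their strongest summit in the last decile of the transcript's length and 2.00% in the first, whereas 6.20% of 54628 intron-class regions were in the last decile and 12.1% in the first. A summit within 1000 bp of the transcript's end was found for 22.7% of exon-class regions and 0.459% of intron-class regions. Exons and introns fill different parts of a gene, so these shares partly restate where the classes can lie, and acetylation per exonic base was not measured. The promoter class took up the starts, and no placed exon-class summit was closer than 1066 bp to the listed start. The share in the last decile was 32.0% to 36.8% in the 4 adult libraries and 38.2% to 43.2% in the 8 spermatogonial ones. The spermatogonial values were all above the adult values. A promoter-class peak of the same gene was called in the same library for 58.1% to 79.2% of exon-class peaks in spermatogonia. In adult cells this share was 81.3% to 86.8%. For intron-class peaks it was 76.0% to 89.2% in spermatogonia and 85.2% to 88.5% in adult cells. In all 12 libraries the exon-class share was below the intron-class share. Of all protein-coding genes, 42.6% to 51.5% had a promoter-class peak in spermatogonial libraries and 52.9% to 55.9% in adult ones.

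**Figure D3:**
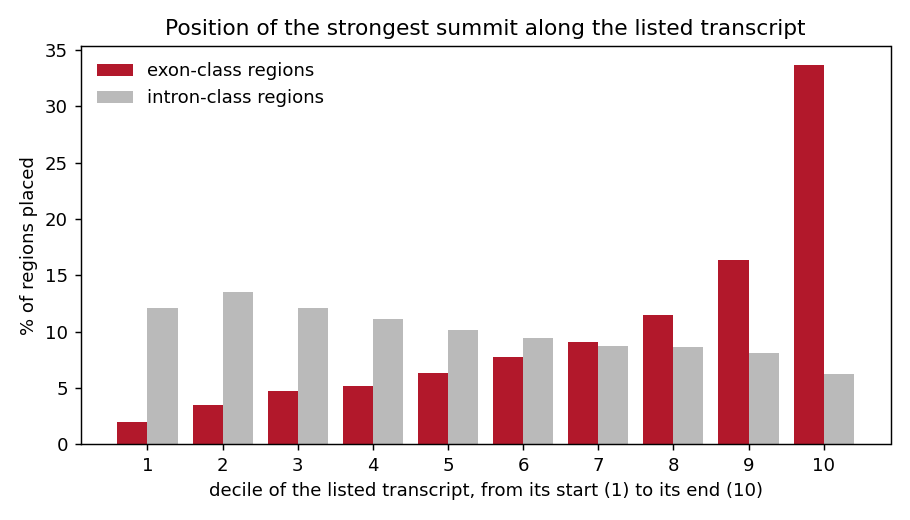
Share of regions in % by decile of the listed transcript's length, from its start (1) to its end (10), for 8941 exon-class regions (red) and 54628 intron-class regions (grey) placed by their strongest summit. The last decile held 33.7% of exon-class and 6.20% of intron-class regions.

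Across stages, 6976 exon-class regions (75.8%) had a peak in at least 1 adult library and none in spermatogonia, 1455 (15.8%) had the opposite pattern and 775 (8.42%) had peaks in both. Over all merged regions the same shares were 62.3%, 16.3% and 21.4%, and over intron-class regions 66.3%, 20.5% and 13.2%. The 8 spermatogonial libraries thus held fewer exon-class regions of their own than the 4 adult libraries did. A peak in all 4 adult libraries and no spermatogonial one was found at 286 exon-class regions (3.11%; 4.94% of all regions). A peak in both PS libraries and no other was found at 414 (4.50%; 4.92% of all regions), and in both RS libraries and no other at 551 (5.99%; 5.88% of all regions). A peak in at least 6 spermatogonial libraries and no adult one was found at 3 (0.0326%; 0.0774% of all regions). No exon-class region was called in all 4 spermatogonial KO libraries and no WT one (0.0286% of all regions), or in all 4 WT and no KO one (0.00155% of all regions). An uncalled region is below a library's calling threshold, not without acetylation.

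The strongest exon-class region of the adult-only pattern lay in Fgf2, which encodes a fibroblast growth factor. At chr3:37395313-37396977 (1665 bp, 46871 bp from the listed start on the plus strand), fold enrichment was 35.1 and 54.4 in PS and 23.9 and 24.9 in RS. Both PS values were above both RS values, and 54.4 was the highest fold enrichment of any exon-class peak. Pou6f1, a POU-domain transcription factor gene (chr15:100579160-100581842), had 21.7 and 31.5 in PS and 16.4 and 14.1 in RS. Bola3, which acts in the assembly of mitochondrial iron-sulfur clusters (chr6:83351539-83354209), had 14.9 and 20.3 in PS and 15.6 and 15.7 in RS. Ccdc42b (chr5:120627985-120631801, at 3817 bp one of the 4 longest exon-class regions) had 18.3 and 28.8 in PS and 15.6 and 11.4 in RS. In these 4 regions the PS libraries were higher than the RS libraries, apart from Bola3, where the groups overlapped.

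Among regions called only in PS, the strongest lay in Cml2 (chr6:85865461-85866737), with 15.6 and 12.3, and in Fam114a1 (chr5:65027670-65029603), with 11.8 and 11.2. Tgfbr3, the gene of the TGF-beta co-receptor betaglycan (chr5:107120723-107123294), had 8.77 and 12.3, and Sema6b, the gene of a semaphorin (chr17:56123804-56125076), had 9.53 and 9.60. Among those called only in RS, Ncoa6, a nuclear receptor coactivator gene (chr2:155403980-155406088), had 12.1 and 9.74. Iscu, the gene of the iron-sulfur cluster scaffold (chr5:113776057-113777410), had 8.996 and 10.8. Irf4, an interferon regulatory factor gene (chr13:30763399-30764450), had 8.61 and 10.8, and Kat8, the gene of a histone H4 acetyltransferase (chr7:127921917-127923796), had 9.39 and 8.66. A peak in both libraries of the group was the condition for naming these 8 regions.

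Of the 3 regions of the spermatogonial pattern, Cxxc4, which encodes a CXXC zinc finger protein (chr3:134239397-134240131), had values of 3.78 to 6.84 in 6 libraries. Another lay in Scml2 itself. At chrX:161237482-161237759 (278 bp), fold enrichment was 9.05 in Thy1+ WT replicate 2, 7.98 and 4.96 in c-Kit+ WT, 5.06 and 5.12 in Thy1+ KO and 3.78 and 5.25 in c-Kit+ KO, with no peak in Thy1+ WT replicate 1 or in adult cells. Scml2 held 5 exon-class regions in all, of 176 to 278 bp, and none was called in an adult library. The genotypes overlapped at these exons, and since the deleted part of the gene is not given in the sources used here and the assay reads chromatin, these values do not check the genotype.

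Exon-class regions were spread over many genes. Taking the 5251 genes listed alone, 2141 had 2 or more exon-class regions, 917 had 3 or more and 92 had 6 or more. Dot1l, which encodes the histone H3 lysine methyltransferase of transcribed genes, had the most, with 13 regions of up to 511 bp (chromosome 10, plus strand). They gave 3 and 2 calls in PS, 9 and 4 in RS, and 1 each in c-Kit+ WT replicate 1 and c-Kit+ KO replicate 1. Kmt2b, a histone H3 methyltransferase gene on chromosome 7, had 11 regions with 6 and 4 calls in RS, none in PS and 1 in c-Kit+ KO replicate 1. Arhgap33, a gene of a GTPase-activating protein, had 10 regions with 8 and 4 calls in RS and 3 and 2 in PS. Mast2, a kinase gene, had 10 with 6 and 3 calls in RS and 1 and 2 in PS and 1 in c-Kit+ KO replicate 1, most of them near the 3′ end of the transcript.

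Zfp862, Slc7a5 and Trrap had most of their calls in PS. Zfp862, a zinc finger gene on chromosome 6, held 10 regions with 6 and 5 calls in PS, none in RS and 2 each in c-Kit+ WT replicate 1 and c-Kit+ KO replicate 1. Slc7a5, the gene of a large neutral amino acid transporter, had 9 regions with 5 and 6 calls in PS and 0 and 1 in RS. Trrap, a subunit gene of histone acetyltransferase complexes, had 9 regions with 2 and 4 calls in PS, 1 and 0 in RS, 1 in Thy1+ KO replicate 1 and 2 in c-Kit+ KO replicate 1. Usp19, a deubiquitinase gene, had 11 regions of up to 283 bp, each called in 1 library, and its calls were spread over the stages, with 3 and 0 in PS, 3 and 1 in RS, 3 in c-Kit+ WT replicate 1 and 1 in c-Kit+ KO replicate 1. Fold enrichments at the regions of these 8 genes were mostly between 3 and 6. The highest was 8.21 in RS KO replicate 1 at an Arhgap33 region of 1657 bp (chr7:30525867-30527523), where the other values were 5.06 in Thy1+ KO replicate 1, 5.72 and 5.33 in PS and 5.95 in RS replicate 2.

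The 17 exon-class regions called in all 12 libraries were 1184 to 2977 bp long, and their median fold enrichment over the libraries ran from 4.89 at Szrd1, within the 4.08 to 5.12 of library medians over all exon-class peaks, to 13.5 at Carns1. The highest mean log2 fold enrichment was that of Srcrb4d (chr5:135960698-135963674, 2977 bp, 2905 bp from the end of the minus-strand gene), where fold enrichment was 10.5 and 12.1 in Thy1+ WT, 11.4 and 13.02 in c-Kit+ WT, 17.2 and 10.2 in Thy1+ KO, 14.7 and 13.99 in c-Kit+ KO, 17.5 and 23.5 in PS and 12.1 and 12.4 in RS, with a median of 12.7. The PS values were the highest, and RS lay within the spermatogonial range. Carns1, the gene of carnosine synthase (chr19:4168961-4171000), had a lowest value of 8.95, a median of 13.5 and a highest of 21.8, the last in Thy1+ KO replicate 1. Nrg2, a neuregulin gene (chr18:36017474-36019307), had 20.2 and 22.4 in PS, 14.9 and 16.8 in RS, and 6.64 to 11.2 in the 8 spermatogonial libraries, so adult and spermatogonial values did not overlap. Relative to library medians, Nrg2 had a log2 change of 0.27 ± 0.14 (SE) in adult against spermatogonial KO libraries and did not pass (adjusted p = 0.149, limma). Kank3 (chr17:33816729-33819231) had 20.2 and 19.7 in PS, 16.4 and 14.1 in RS, and 6.41 to 15.2 in spermatogonia, with an overlap at Thy1+ KO replicate 1. Magi2, the gene of a scaffold protein (chr5:20701358-20703309), had 7.24 to 16.7 with no separation of stages, at a summit 794919 bp from its start and 2355 bp from its end. The others included Krt10, Synpo2l, H13, Synpo, Eps8l1 and the predicted gene A830009L08Rik.

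**Figure D4:**
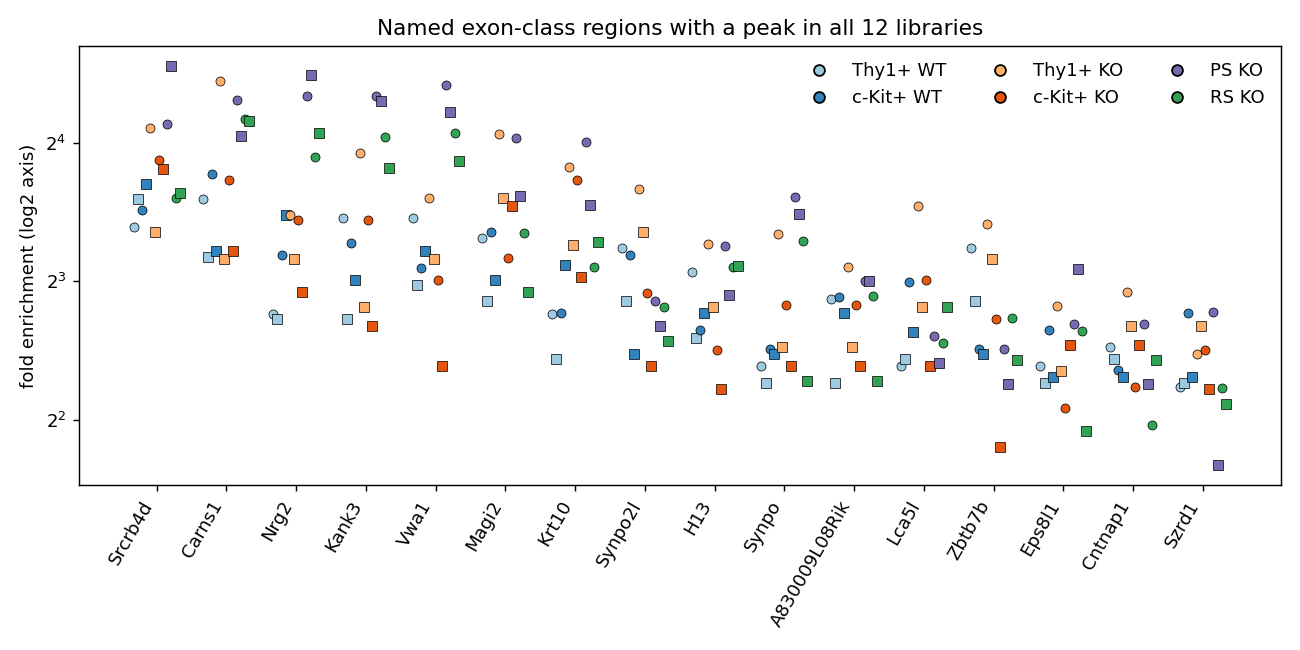
Fold enrichment (log2 axis) in each library at exon-class regions with a peak in all 12 libraries that are named in the text, labelled by the listed gene and ordered by mean log2 fold enrichment; colour gives the group, circles replicate 1 and squares replicate 2. At Nrg2 and Vwa1 the 4 adult libraries lie above the 8 spermatogonial libraries before centring.

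The longest exon-class region lay in Git1, which encodes a GTPase-activating scaffold protein (chr11:77502346-77509085, 6740 bp). Fold enrichment at Git1 was 7.63 and 6.93 in PS and 12.5 and 11.9 in RS, and 4.72, 3.99 and 5.06 in replicate 1 of Thy1+ WT, c-Kit+ WT and Thy1+ KO. Sigirr, the gene of an inhibitory interleukin-1 receptor-related protein (chr7:141087839-141092829, 4991 bp), had 9.53 and 4.27 in PS and 14.1 and 11.9 in RS. Tcf20, a transcriptional coregulator gene (chr15:82851547-82855585, 4039 bp), had 9.53 and 5.86 in PS and 13.3 and 16.8 in RS. At these 3, both RS values were above both PS values. Ccdc42b, the other of the 4 longest, went the other way, with 18.3 and 28.8 in PS and 15.6 and 11.4 in RS.

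Changes in fold enrichment were tested with limma on log2 values, each library centred on its median, at the regions called in every library of a comparison. This left few exon-class regions. Between KO and WT spermatogonia, 18 of 9206 could be tested and none passed an adjusted p of 0.05, as for all regions (0 of 9502, 0%). At an unadjusted p under 0.05 there were 3 of the 18, and 493 of all regions (5.19%). Between c-Kit+ and Thy1+ spermatogonia, none of the same 18 passed, against 1.08% of all regions tested, and 5 had an unadjusted p under 0.05, against 14.1% of all regions. With so few regions the tests say little about the class.

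Between adult cells and spermatogonia of KO, 13 of 23 exon-class regions passed, 1 higher and 12 lower in adult cells, against a background of 40.6% of all regions (1318 higher and 2860 lower). The median log2 change was −0.48 over the 23 and −0.12 over all regions tested. Vwa1, the gene of an extracellular matrix protein (chr4:155768972-155771411), was the one that was higher. Its fold enrichment was 21.4 and 18.7 in PS and 16.8 and 14.6 in RS, beside 12.2 and 8.95 in Thy1+ KO and 8.04 and 5.25 in c-Kit+ KO, and 7.84 to 11.004 in WT. The centred log2 change was 0.43 ± 0.13 (SE; limma adjusted p = 0.0184), relative to library medians that were 3.76 to 4.30 on the log2 scale in adult cells and 2.92 to 4.02 in spermatogonia. The call for Vwa1 was lost without Thy1+ KO replicate 1 (log2 change 0.35, limma adjusted p = 0.0588), PS replicate 1 (0.36, adjusted p = 0.0876), RS replicate 1 (0.44, adjusted p = 0.0508) or RS replicate 2 (0.43, adjusted p = 0.0541), while the change stayed between 0.35 and 0.51 whichever library was left out. With uncalled libraries at their lowest value it was 0.77.

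Synpo2l, the gene of an actin-associated protein (chr14:20660532-20662262), had 7.24 and 6.40 in PS and 7.04 and 5.95 in RS, against 12.7 and 10.2 in Thy1+ KO and 7.57 and 5.25 in c-Kit+ KO. Its centred log2 change was −1.03 ± 0.14 (SE; limma adjusted p = 5.65e-05), although adult and c-Kit+ KO values overlapped before centring. Lca5l (chr16:96158678-96159861) changed by −1.02 ± 0.14 and Zbtb7b, a zinc finger transcription factor gene (chr3:89377922-89379583), by −0.97 ± 0.16. Szrd1 and Cntnap1, the latter the gene of a contactin-associated protein, changed by −0.95 ± 0.23 and −0.93 ± 0.20. All of these were lower relative to the median region of the same library. Before centring, adult and spermatogonial KO values overlapped at Lca5l, Zbtb7b, Szrd1 and Cntnap1 as well. Adult values were 5.33 to 7.03 at Lca5l, 4.80 to 6.65 at Zbtb7b, 3.20 to 6.86 at Szrd1 and 3.91 to 6.48 at Cntnap1. In the same order, spermatogonial KO values were 5.25 to 11.6, 3.50 to 10.6, 4.66 to 6.40 and 4.73 to 7.59. The log2 medians subtracted were 3.76 to 4.30 in adult and 2.92 to 4.02 in spermatogonial KO libraries. Under quantile normalization the changes of Zbtb7b, Szrd1 and Cntnap1 were −0.47, −0.45 and −0.48 and no longer passed (limma adjusted p = 0.0733, 0.0846 and 0.106), and those of Synpo2l and Lca5l were −0.71 and −0.65 and passed. With uncalled libraries at their lowest value, Lca5l, Zbtb7b and Szrd1 had −0.67, −0.62 and −0.60 and did not pass (limma adjusted p = 0.0696, 0.0741 and 0.0774), while Synpo2l at −0.68 and Cntnap1 at −0.59 passed. Under quantile normalization 7 of the 23 passed, 2 higher and 5 lower, against 33.8% of all regions (1693 higher and 1786 lower). With equal numbers of strongest peaks 15 of 26 passed, 7 higher and 8 lower, against 37.4% of all regions (1198 higher and 1872 lower).

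RS and PS of KO allowed 452 exon-class regions to be tested, of which 103 (22.8%) passed, beside 21.0% of all regions. In RS, 80 were higher and 23 lower, and over all regions 2830 were higher and 1643 lower. Their median log2 change was 0.11, beside −0.07 over all regions tested. The split depended on scaling, with 53 higher and 28 lower under quantile normalization (2176 and 1593 over all regions). Among strong peaks the shares lay farther apart: with a −log10 q of at least 5, 79 of 315 passed (25.1%) against 13.6% of all regions, and with equal numbers of strongest peaks 38 of 171 (22.2%) against 8.18%. The number also depended on single libraries. Without RS replicate 1 there were 52 of 493 (10.5%, against 11.8% of all regions), and without RS replicate 2 there were 60 of 648 (9.26%, against 12.2%). Without PS replicate 2 none of 718 passed in limma, nor any of 26264 regions in all, while 174 and 6903 of them had an unadjusted p under 0.05; that fit had 1 PS library, assumed to vary like the RS libraries.

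The largest increases in RS were at A330070K13Rik (chr5:130378724-130380099), where fold enrichment was 5.72 and 4.80 in PS and 13.3 and 13.5 in RS, with a log2 change of 1.56 ± 0.21 (SE; limma adjusted p = 0.0051). Trove2, the gene of the RNA-binding protein Ro60 (chr1:143754547-143755489), had 4.19 and 4.80 in PS and 12.1 and 10.3 in RS, a log2 change of 1.52 ± 0.19. Pcdhb12, a protocadherin gene (chr18:37436651-37438377), had 7.24 and 3.20 in PS and 12.5 and 11.4 in RS, a change of 1.51 ± 0.33, which was 0.77 without PS replicate 2 and 2.08 without PS replicate 1. With uncalled libraries at their lowest value the change at Pcdhb12 was 1.31 and did not pass (limma adjusted p = 0.0853). Psmf1, the gene of a proteasome inhibitor (chr2:151728991-151730831), had 6.48 and 4.27 in PS and 15.3 and 10.3 in RS. Foxk1, a forkhead transcription factor gene (chr5:142457949-142460879), had 3.81 and 3.73 in PS and 8.61 and 9.20 in RS. None of these 5 had a peak in spermatogonia. They were named for the size of their change, so the separation of RS from PS values is not a separate result.

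The largest decreases in RS were at Ms4a15 (chr19:10978286-10979427), with 10.3 and 10.1 in PS and 3.13 and 3.79 in RS, a log2 change of −1.36 ± 0.23 (SE; limma adjusted p = 0.00585). Rnf220, a ubiquitin ligase gene (chr4:117276361-117278031), had 11.1 and 11.2 in PS and 4.30 and 3.79 in RS, a change of −1.26 ± 0.19. Cnn3, a calponin gene (chr3:121449348-121450339), had 9.91 and 11.2 in PS, 4.30 and 4.33 in RS and 4.66 to 7.98 in 5 spermatogonial libraries. Vstm2l (chr2:157943438-157945057) had 12.96 and 14.4 in PS and 5.48 and 5.95 in RS. Dnajc12, a co-chaperone gene (chr10:63395042-63396537), had 17.5 and 29.3 in PS and 9.78 and 9.20 in RS. The calls at all 10 of these regions were lost without PS replicate 2, which left 1 PS library in the fit (limma adjusted p of 0.153 to 0.155). The changes kept their direction there, at 0.77 to 1.47 for the 5 increases and −0.83 to −1.53 for the 5 decreases.

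**Figure D5:**
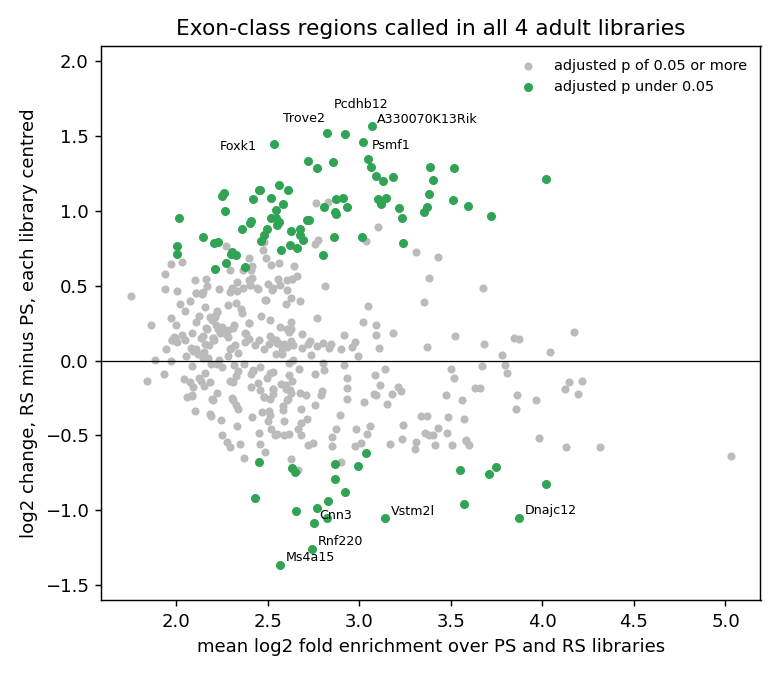
Centred log2 change from PS to RS in KO (vertical axis) against mean log2 fold enrichment (horizontal axis) for the 452 exon-class regions called in all 4 adult libraries. Green points passed a limma adjusted p of 0.05 (80 higher and 23 lower in RS); the 5 largest changes in each direction are named.

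Gene lists were compared with all 19162 genes listed in the tables, of which 28.0% had an exon-class region. Of 18 spermatogonial genes, 4 had one (9 regions, 8 of them adult-only). For Lin28a, the gene of an RNA-binding protein of undifferentiated cells, a region at chr4:134005583-134006232 had 5.48 and 5.41 in RS and 4.56 in Thy1+ KO replicate 1, and one in Zbtb16, the gene of the spermatogonial factor PLZF (chr9:48654699-48655566), had 4.58 and 6.93 in PS and 6.26 in RS replicate 1. Of 27 meiotic genes, 6 had one, and all 13 regions were adult-only. Rec8, the gene of the meiotic cohesin, had 5.87 and 3.79 in RS at chr14:55624421-55624914. Piwil1, a PIWI gene of the piRNA pathway, had 4.19 in PS replicate 1 and 3.91 and 4.33 in RS at chr5:128739065-128739555. Of 24 spermatid genes, 7 had one, and all 14 regions were adult-only. Catsper2, the gene of a sperm calcium channel subunit, had 6.48 and 4.80 in PS and 4.69 and 4.33 in RS at chr2:121412057-121412474. The shares of the 3 lists were 22.2%, 22.2% and 29.2%, beside 28.0% of all genes, and adult-only regions made up most of the class.

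Shares in the families taken by symbol ran from 0.293% for microRNA genes to 54.0% for protocadherins. Protocadherin genes, many of which have long single exons, were listed at exon-class regions for 27 of 50 genes, from only 15 regions, because some peaks listed several genes. Hox genes had exon-class regions for 14 of 33 (16 regions, 7 of them spermatogonial-only and 5 adult-only), for example Hoxc6 (chr15:103010713-103011561), which was called in spermatogonia and in PS, with 5.13 and 4.96 in c-Kit+ WT, 5.57 and 5.12 in Thy1+ KO, 5.67 in c-Kit+ KO replicate 1 and 3.73 in PS replicate 2. Hoxc9 (chr15:102981485-102982433) had its highest value, 12.7, in Thy1+ KO replicate 1, with 3.99 to 7.03 in 5 other spermatogonial libraries, 4.58 in PS replicate 1 and 4.69 in RS replicate 1. Ribosomal protein genes had exon-class regions for 18 of 93 and zinc finger genes for 79 of 348 (22.7%). Clustered histone genes had them for 2 of 68, olfactory and vomeronasal receptor genes for 3 of 153, microRNA genes for 1 of 341 and predicted genes for 364 of 2457.

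Promoter-class peaks at marker genes were used to check the cell labels. Spermatid markers had promoter peaks at 0 of 6 genes in every spermatogonial library and at 6 of 6 in every adult library, including PS. Spermatocyte markers had 1 to 4 of 6 in spermatogonia and 6 of 6 in adult cells, and spermatogonial markers had 0 to 5 of 6 and 3 to 5 of 6. Markers of somatic cells also had promoter peaks, at 1 to 4 of 5 Sertoli genes in spermatogonia and 3 to 4 in adult cells, 0 to 3 and 1 to 3 of 5 Leydig genes, 0 to 4 and 1 to 2 of 4 peritubular genes, 1 to 2 and 2 of 4 endothelial genes and 0 to 2 and 1 to 3 of 4 macrophage genes. Gata4 and Cdh5 had one in all 12 libraries, and Rhox5, Cyp17a1, Hsd3b1 and Adgre1 in none. The part of other cell types in the exon-class regions was not tested, and in these bulk samples fewer cells of a type and less acetylation per cell cannot be told apart.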

How the data were processed

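H3K27ac and input peak tables of 28 mouse germ cell libraries were used, 1 table per library. Reads were aligned with Bowtie to mm10 and peaks called with MACS2, per the submitters' processing notes; versions, filters and depth are not given in the sources used here. Lines held, per the file headers, a summit's signal height, a fold enrichment (a ratio), −log10 p and −log10 q values, the peak's length, the listed RefSeq transcript and a class of location. The deposited signal was a whole number, and the deposited fold enrichment equalled the height plus 1 over a library-wide background plus 1. The deposited −log10 p and q values came from the same comparison. Read depth is unknown. Of 19134 transcripts listed under 1 gene, 92.9% matched a symbol in a RefSeq table of GRCm38.p6 and 99.4% of these lay inside the gene.

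Peaks were merged by an overlap of at least 1 bp, and a library's value in a region was its highest fold enrichment. Shares, lengths and fold enrichments were compared over libraries by 2-sided exact permutation tests, adjusted by the Benjamini-Hochberg method over 8 tests. Regions called in every library of a comparison were fitted with limma 3.58.1 (R 4.3.3) on centred log2 fold enrichment, adjusted over all regions tested, after a check on simulated data. Other steps used Python 3.11.15, pandas 2.3.3 and scipy 1.17.1. Named genes were those with the most regions, the most libraries, the strongest in each call pattern, the largest changes per fit, the longest regions, up to 4 per gene list, and Scml2. Start windows on chromosome 18 were not shown. A few regions are not reported here. The members and lists were chosen with earlier results of these data known. Alternatives were a −log10 q of at least 5, an overlap of 50%, all summits of 1 class, input overlaps kept, equal peak numbers, a replicate block, quantile normalization, uncalled libraries set to their lowest value, a mean fold enrichment of at least 5, and leaving out each library. A share of gene-body peaks, alone or with either of the strong-peak settings, and a mean log2 fold enrichment were added after the data were seen.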

Additional observations from a re-analysis of the deposited data

How the results depend on the processing

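The number of exon-class regions was 3275 with a −log10 q of at least 5 and 2220 with equal numbers of strongest peaks, against 9206. With a −log10 q of at least 5, the length difference between classes turned to 0.348 within libraries, to −0.0442 for adult against spermatogonia and to −0.0700 for KO against WT, and the fold enrichment difference between classes to 0.0588. With equal numbers of strongest peaks, these turned to 0.0435 for length and 0.0343 for fold enrichment within libraries, and for KO against WT to −0.0395 for length and 0.0425 for fold enrichment. With an overlap of 50%, length for KO against WT turned to −0.0146, and leaving out single libraries gave −0.0548 to 0.0704 for it. The cause was not tested.

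Exon-class regions called between c-Kit+ and Thy1+ cells numbered 1 with a −log10 q of at least 5 (24 of 6503 regions in all), 2 with equal numbers of strongest peaks (149 of 8857) and 11 of 446 with uncalled libraries at their lowest value (2.47%, against 5.19% of all regions). Between adult cells and spermatogonia there were 23 of 33 with input overlaps kept (4178 of 10287 in all), 7 of 23 under quantile normalization (33.8% of all) and 963 of 2850 with uncalled libraries at their lowest value (33.8%, against 33.4% of all). Between RS and PS there were 38 with equal numbers of strongest peaks, 232 of 2535 with uncalled libraries at their lowest value (9.15%, against 13.1% of all) and 0 to 87 when 1 library was left out. The KO share of gene-body peaks turned to −0.885 points with equal peak numbers and to −3.31 with a −log10 q of at least 5, both added after the data were seen, and the KO share of all peaks was 0.305 to 1.14 points above WT when 1 library was left out.

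Under a replicate block, the adult difference in share was 2.85 points (exact permutation test, p = 0.0556; adjusted p = 0.25), and 123 exon-class regions passed between RS and PS (23.9% of all regions did). Within each cell type and replicate number, the KO share was above the WT share in all 4 pairs (exact permutation test with the block, p = 0.125, the smallest it allows). Replicate 1 had more exon-class peaks and a higher background height in all 6 groups. Same-numbered libraries deviated together weakly across regions, with correlations of −0.0075 to 0.16. These were taken on centred values, so they do not measure library-wide shifts in peak number or background height. The main tests did not pair libraries by number, and whether same-numbered libraries share a batch was not tested. For the single regions named from the fits, 74 values kept their call and 14 lost it when a library was left out, and 109 kept it and 7 lost it under the other alternatives; none turned. Groups of 2 libraries, an unknown depth and peak lists without values below the calling threshold limit all comparisons.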

Other observations

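Exon-class regions were not spread over the chromosomes like intron-class regions. Chromosome 11 held 10.8% of exon-class and 7.88% of intron-class regions, chromosome 7 held 9.61% and 6.60%, and chromosome 17 held 6.17% and 4.62%, while chromosome 12 held 2.56% and 4.31%. The X chromosome held 76 exon-class regions (0.826%, against 0.864% of intron-class regions). Of the exon-class peaks of a library, X-linked ones made up 0.913% and 1.76% in PS (29 and 46 peaks). They made up 0.396% and 0.19% in RS (17 and 5 peaks) and 0% to 2.65% in spermatogonia (0 to 9 peaks). Intron-class peaks were also X-linked more often in PS (0.819% and 1.47%) than in RS (0.568% and 0.473%), with 0.333% to 0.691% in spermatogonia. These values were given no test. RefSeq miRNA hairpins overlapped 16 exon-class regions.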
